A study of Mus musculus with 6 samples.

Results

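The vascular endothelial growth factor (VEGF) family was examined in infarct macrophages with and without the integrin α5 chain. The set was chosen by gene symbol and holds 10 genes of the 54532 listed, comprising 5 ligands (Vegfa, Vegfb, Vegfc, Vegfd and Pgf), 3 receptor tyrosine kinases (Flt1, Kdr and Flt4) and 2 co-receptors (the neuropilins Nrp1 and Nrp2). All 10 passed the filter on low counts.

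The cells were Ly6G-, CD11b+ cells from infarcted hearts of 12-week-old C57BL/6 mice, 7 days after permanent occlusion of a coronary artery without reperfusion. The control group, ITGA5 fl/fl, carried integrin α5 alleles flanked by recombination sites and no Cre. The other group, Myα5KO, carried the same floxed alleles and LyzM-Cre, in which Cre recombinase is expressed from the lysozyme M locus and acts in myeloid cells in general, not in macrophages alone. Each group had 3 RNA-seq libraries from individual hearts. The labels only number the libraries, so p-values measure the spread between these samples. Cells were selected with magnetic beads rather than sorted by fluorescence, and the preparation was sequenced as bulk RNA, in which fewer cells of a type and less RNA per cell cannot be told apart.

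Library totals lay between 15424451 and 18419287 counts. Itga5, the targeted gene, fell to 8.02% of the control level in Myα5KO (log2 fold change -3.64, edgeR adjusted p = 4.42e-12), with 9666 to 10536 counts in ITGA5 fl/fl libraries and 895 to 939 in Myα5KO libraries. All 12 macrophage markers examined, among them Adgre1 and Csf1r, passed the filter, with a summed level of 16914 to 17157 CPM (counts scaled to a common library size) in ITGA5 fl/fl libraries and 15255 to 15988 CPM in Myα5KO. The largest part of the sum was Cd14, with means of 4755 ± 160 and 3489 ± 239 CPM (edgeR adjusted p = 0.00413). Adgre1 had means of 1313 ± 80.3 and 1272 ± 55.3 CPM (adjusted p = 0.763). Those of Csf1r were 2188 ± 104 and 2153 ± 141 CPM (adjusted p = 0.894). Markers of other cell types were detected as well. Endothelial markers summed to 772 to 810 CPM and 759 to 919 CPM in the same order, and fibroblast markers to 2101 to 2389 CPM and 1659 to 2042 CPM.

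VEGF-A is a secreted dimer that drives endothelial cell division, migration and vessel permeability, and macrophages are one of its sources in healing tissue. It binds FLT1 (VEGF receptor 1), which has high affinity but weak kinase activity and is found on endothelial cells and on monocytes, and KDR (VEGF receptor 2), which carries most of the growth signal in endothelium. VEGF-B and placental growth factor bind FLT1, whereas VEGF-C and VEGF-D bind FLT4 (VEGF receptor 3), a receptor of lymphatic endothelium. Neuropilins have no kinase of their own, hold VEGF and its receptors in a complex, and also bind class 3 semaphorins together with plexins.

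Of the 10 genes, 3 differed between the groups at an adjusted p of 0.05 or less. Vegfa, the main ligand, fell by 24.4% in Myα5KO, whereas Kdr and Nrp1 were 19.6% and 26.4% higher. These correspond to 1 gene called lower and 2 called higher of 10, where 5.19% of all tested genes were called lower and 3.56% were called higher. The libraries of both groups did not overlap for 4 members (40% of them), a separation seen in 28.6% of all tested genes. The fold changes of all 3 called genes were small, with a fold of 0.756 for Vegfa (95% interval 0.655 to 0.871), 1.2 for Kdr (1.07 to 1.33) and 1.26 for Nrp1 (1.13 to 1.41).

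The 250 bases before the RefSeq transcription start of these 3 genes are shown because they are the members that were called, and because regulators of Vegfa were examined among the other genes. The sequences come from RefSeq promoters on GRCm38.p6, where all 10 members were matched, and are printed 5′ to 3′ on the strand of the gene. Vegfa and Pgf had 2 windows each, and only the window nearest the deposited gene start was used. Capitals mark GC boxes, the letters GGGCGG on either strand (CCGCCC where the box lies on the other strand), which are the known binding letters of Sp1.
Vegfa, chr17:46032378-46032627, minus strand: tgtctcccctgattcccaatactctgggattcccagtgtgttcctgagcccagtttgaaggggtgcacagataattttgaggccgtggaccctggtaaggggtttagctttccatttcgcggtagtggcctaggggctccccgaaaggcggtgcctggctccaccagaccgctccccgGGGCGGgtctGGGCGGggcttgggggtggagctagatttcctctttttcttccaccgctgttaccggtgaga
Kdr, chr5:75978456-75978705, minus strand: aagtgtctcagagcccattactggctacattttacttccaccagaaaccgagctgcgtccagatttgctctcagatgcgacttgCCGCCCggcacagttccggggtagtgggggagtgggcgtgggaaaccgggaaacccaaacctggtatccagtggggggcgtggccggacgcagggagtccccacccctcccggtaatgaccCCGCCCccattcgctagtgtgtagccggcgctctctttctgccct
Nrp1, chr8:128358823-128359072, plus strand: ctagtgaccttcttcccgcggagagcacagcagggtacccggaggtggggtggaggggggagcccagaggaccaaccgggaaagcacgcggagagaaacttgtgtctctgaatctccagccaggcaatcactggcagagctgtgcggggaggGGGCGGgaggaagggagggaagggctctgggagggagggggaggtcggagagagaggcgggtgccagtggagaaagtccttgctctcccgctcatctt
The Vegfa window held 2 GC boxes, which begin 72 and 62 bases before the start, the Kdr window held 2, at 166 and 45 bases, and the Nrp1 window held 1, at 98 bases. The RefSeq starts lay 8, 3 and 469 bases from the gene starts in the deposited annotation, so the whole Nrp1 window lies inside the deposited gene. GC boxes were present in the windows of 9 of 10 members, all but Vegfd. They were in 55.4% of the 13321 windows of tested genes, where every window of a gene was counted. ACGTG, a form of the hypoxia-inducible factor core, was found in 0 of 10 member windows on either strand, against 21.0% of windows of tested genes. The letters TGANTCA (AP-1) and CGGAAG (ETS) were likewise in 0 of 10, against 4.8% and 23.6%. The hypoxia-inducible factor core can also read GCGTG, and that form was not counted. Read on either strand, it is present in the printed Kdr and Nrp1 windows and in those of Vegfb, Pgf, Flt1 and Nrp2. Its share among the windows of tested genes was not computed. The 0 of 10 for this core therefore holds for the counted form only, and a lack of the core in the family was not tested. These counts describe the letters in these windows only.

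The members differed widely in level. Compared per transcript length, as FPKM, Vegfa was by far the most abundant, at 154 ± 8.47 in ITGA5 fl/fl (SD, n = 3), which is 7.33 times the next member and at percentile 98.1 of the 16915 protein-coding genes with a count. The neuropilins followed, with 21.1 ± 1.33 FPKM for Nrp2 and 20.3 ± 0.955 FPKM for Nrp1, and the ranges of these neighbours overlapped. Vegfb had 13.5 ± 0.218 FPKM. Among the receptors, Kdr (5.52 ± 0.410 FPKM) stood above Flt1 (3.51 ± 0.619 FPKM), and Flt4 was low at 0.784 ± 0.124 FPKM. The remaining ligands were also low, with Pgf at 2.49 ± 0.0840 FPKM, Vegfc at 1.01 ± 0.0104 FPKM and Vegfd at 0.557 ± 0.109 FPKM. In ITGA5 fl/fl libraries, Nrp2 and Nrp1 were the only neighbours in this order whose ranges overlapped.

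In Myα5KO libraries the order was the same except that Nrp1 (25.6 ± 2.40 FPKM) stood above Nrp2 (20.4 ± 3.15 FPKM). Their ranges were separated only narrowly, with 22.96 FPKM in the lowest Nrp1 library and 22.94 FPKM in the highest Nrp2 library. Vegfa again led, at 116 ± 17.7 FPKM.

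**Figure D1:**
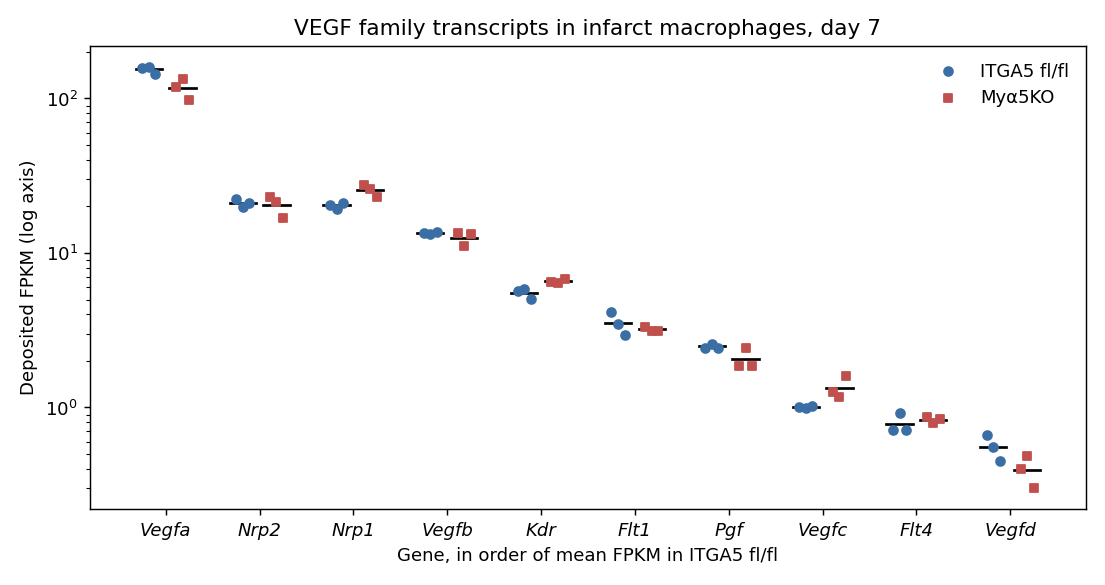
FPKM of each member (log axis) in every library, with circles for ITGA5 fl/fl, squares for Myα5KO and a line at each group mean (n = 3 each), ordered by the ITGA5 fl/fl mean. Vegfa stands far above the other members in both groups, Vegfd is lowest at 0.557 and 0.395 FPKM, and the groups are apart for Vegfa, Nrp1, Kdr and Vegfc.

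Vegfa (ENSMUSG00000023951, GRCm38 chromosome 17, 46016993 to 46032369, minus strand, protein coding, 13 annotated transcripts of which 8 are coding) had 10159, 11764 and 10918 counts in ITGA5 fl/fl libraries and 9538, 10688 and 8106 counts in Myα5KO libraries. Scaled by the trimmed mean of M-values (TMM), these were 681, 691 and 621 CPM against 508, 572 and 426 CPM. All 3 Myα5KO libraries lay below all 3 ITGA5 fl/fl libraries, and replicate 3 was the lowest of each group. The means were 664 ± 37.7 and 502 ± 73.0 CPM, a log2 fold change of -0.40 (SE 0.095, 95% interval -0.61 to -0.20, adjusted p = 0.0189). The counts join all transcripts, so the VEGF-A isoforms that differ in binding to matrix were not resolved. The call of Vegfa was lost on leaving out ITGA5 fl/fl replicate 1 (-0.39, adjusted p = 0.0542) or replicate 2 (-0.38, adjusted p = 0.0801), and over all alternatives its adjusted p ranged from 6.11e-06, without a count filter, to 0.226, with limma on unfiltered FPKM values.

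The other ligands of FLT1 were not called. Vegfb (ENSMUSG00000024962, chromosome 19, 6982473 to 6987651), a ligand tied to cardiac muscle and fat metabolism, had 321 to 388 counts in the controls and 334 to 410 counts in Myα5KO, which gave 21.7 ± 0.315 and 20.3 ± 2.15 CPM. The groups overlapped, and the log2 difference of -0.09 had an interval of -0.30 to 0.11 (adjusted p = 0.611), and it was -0.012 without Myα5KO replicate 2 and -0.14 without Myα5KO replicate 1. Pgf (ENSMUSG00000004791, chromosome 12, 85166635 to 85177790), placental growth factor, had 7.11, 7.58 and 7.11 CPM against 5.43, 7.12 and 5.47 CPM. Myα5KO replicate 2 alone reached the control range, and the log2 difference was -0.28 (interval -0.59 to 0.04, adjusted p = 0.288), or -0.42 without that library.

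The lymphatic ligands were sparse. Vegfc (ENSMUSG00000031520, chromosome 8, 54077606 to 54187096) had 37, 42 and 44 counts in the controls, where Myα5KO libraries had 58, 54 and 76, or 2.48, 2.47 and 2.50 CPM against 3.09, 2.89 and 4.0 CPM. Every Myα5KO library lay above every ITGA5 fl/fl library, with a log2 fold change of 0.42, yet the gene was not called (interval -0.02 to 0.86, adjusted p = 0.241). The log2 value was 0.27 without Myα5KO replicate 3, the library at 4.0 CPM, and 0.22 with limma on log2(FPKM + 1), and its adjusted p ranged from 0.128 to 0.520 over the alternatives. At this depth, 37 counts have an exact 95% Poisson interval of 26.1 to 51.0, which covers counting error only. Vegfd (ENSMUSG00000031380, chromosome X, 164373378 to 164402650) had 24, 23 and 19 counts against 18, 22 and 14 counts. Its groups overlapped, and its log2 interval of -1.17 to 0.20 (estimate -0.48, adjusted p = 0.393) was the widest of the members, so a change of the size seen for Vegfa was not detectable for it.

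**Figure D2:**
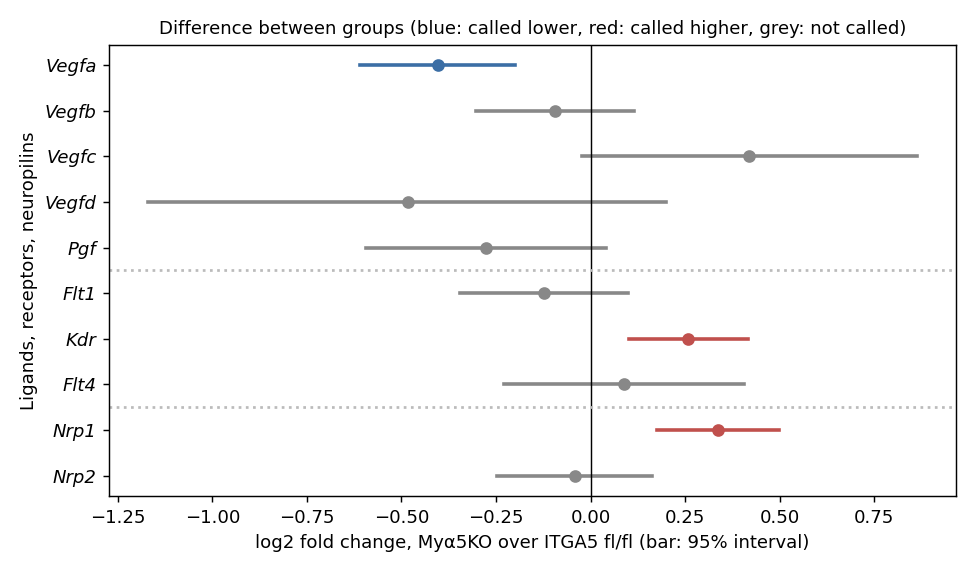
Log2 fold change (Myα5KO over ITGA5 fl/fl) with its 95% interval for each member, in the order ligands, receptors, neuropilins, from the edgeR fit of 3 libraries per group. Vegfa (-0.40) was called lower and Kdr (0.26) and Nrp1 (0.34) higher, and the intervals of the other 7 members cross 0.

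Kdr (ENSMUSG00000062960, chromosome 5, 75932827 to 75978458, minus strand) was the only receptor called. It had 769, 900 and 803 counts in the controls, where Myα5KO libraries had 1103, 1090 and 1186, or 51.5, 52.9 and 45.7 CPM against 58.7, 58.3 and 62.4 CPM. All Myα5KO libraries were above all ITGA5 fl/fl libraries, with means of 50.0 ± 3.81 and 59.8 ± 2.23 CPM. The log2 fold change was 0.26 (SE 0.073, interval 0.10 to 0.42, adjusted p = 0.0433), just inside the threshold. Kdr kept its direction in all 17 alternatives but was called in 3 of them, and it was not called when any 1 of the 6 libraries was left out (log2 values 0.19 to 0.30). With DESeq2 its adjusted p was 0.0612, and over all alternatives it ranged from 0.0123 to 0.226.

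Flt1 (ENSMUSG00000029648, chromosome 5, 147561604 to 147726011, minus strand), the receptor also found on monocytes, spread widely in the controls. Its levels were 56.3, 47.0 and 39.6 CPM in ITGA5 fl/fl libraries and 45.2, 42.6 and 43.1 CPM in Myα5KO. The Myα5KO values all lay inside the control range, and the log2 difference was -0.12 (interval -0.35 to 0.10, adjusted p = 0.521), which turned to 0.011 without ITGA5 fl/fl replicate 1. Of its 6 annotated transcripts 2 are coding, and the counts do not separate the soluble receptor from the membrane form. Flt4 (ENSMUSG00000020357, chromosome 11, 49609263 to 49652739) had 88, 131 and 103 counts against 134, 122 and 134 counts. These gave 6.48 ± 1.05 and 6.90 ± 0.327 CPM, with overlapping groups and a log2 difference of 0.09 (interval -0.23 to 0.41, adjusted p = 0.771), which was 0.027, 0.23 and 0.016 without ITGA5 fl/fl replicates 1, 2 and 3 in turn.

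Since VEGF receptors are typical of endothelium, endothelial markers were examined beside them. Of 20 endothelial markers, 0 were called higher and 1 was called lower (Cldn5, a tight junction protein, log2 fold change -0.44), with 13 positive and 7 negative log2 values and a median of 0.05, where the median of all tested genes was 0.015. At an unadjusted p under 0.05, 3 were higher and 1 lower, and DESeq2 and limma-voom also called 0 higher and 1 lower. Cdh5, the endothelial cadherin, was 88.2 ± 7.67 and 86.6 ± 4.68 CPM, whereas Pecam1, an adhesion molecule shared with leukocytes, was 79.2 ± 1.64 and 89.3 ± 6.23 CPM without passing the test (adjusted p = 0.142). Tek and Egfl7 had log2 values of 0.27 and 0.35, against 0.26 for Kdr, and did not pass either (adjusted p = 0.160 and 0.237). The summed level of the list overlapped between groups (two-sided exact permutation p = 0.9), and its highest value, 919 CPM, belonged to a Myα5KO library. Kdr per 100 CPM of this sum was 6.36, 6.62 and 5.92 in ITGA5 fl/fl libraries and 7.74, 7.49 and 6.79 in Myα5KO, and these groups did not overlap. The CPM of Kdr alone already separated the groups, and the share of all genes whose quotient does so was not computed. The same quotient overlapped between groups for Flt1, Flt4, Nrp1 and Nrp2. Of the lymphatic endothelial markers, Ccl21a had no count in any library, Prox1 was at 1.16 ± 0.224 and 1.11 ± 0.411 CPM, and Pdpn, which macrophages also express, fell (log2 fold change -0.54). The lymphatic markers summed to 286 to 347 CPM and 198 to 262 CPM. Most of these sums came from Pdpn (236 ± 23.5 and 162 ± 22.7 CPM) and Lyve1 (68.4 ± 15.8 and 70.2 ± 14.4 CPM). The study also reports Lyve1 in resident cardiac macrophages. The part of the lymphatic markers in the low Flt4 and Vegfc values was not tested.

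Nrp1 (ENSMUSG00000025810, chromosome 8, 128358604 to 128503363, plus strand), co-receptor of VEGF-A and of class 3 semaphorins, had the largest log2 increase among the called members. It had 2979, 3244 and 3658 counts in the controls, and the Myα5KO libraries had 5099, 4790 and 4347, or 199.7, 190.5 and 208.2 CPM against 271.4, 256.3 and 228.6 CPM. The groups did not overlap, with means of 199 ± 8.82 and 252 ± 21.7 CPM and a log2 fold change of 0.34 (SE 0.075, interval 0.18 to 0.50, adjusted p = 0.0137). The call of Nrp1 was lost on leaving out ITGA5 fl/fl replicate 2 (0.31, adjusted p = 0.0767) or Myα5KO replicate 2 (0.32, adjusted p = 0.0562), and over all alternatives its adjusted p ranged from 0.000175, without a count filter, to 0.172.

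Nrp2 (ENSMUSG00000025969, chromosome 1, 62703285 to 62818695, plus strand), the co-receptor known for VEGF-C and semaphorin binding, did not share this pattern. Its levels were 266.3, 236.1 and 249.3 CPM in ITGA5 fl/fl libraries and 272.4, 254.5 and 203.4 CPM in Myα5KO. The highest and the lowest library both belonged to Myα5KO, and the log2 difference of -0.04 (interval -0.25 to 0.16, adjusted p = 0.837) turned to 0.073 without Myα5KO replicate 3, to 0.0033 without ITGA5 fl/fl replicate 1 and to 0.039 when scaled by library size. Nrp2 overlaps the annotated genes Gm37121 and Gm29083, which held 117 and 22 counts over all libraries, and Nrp1 contains Mir1903, which held 0.

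Among 13 semaphorins, plexins and adaptors that act with neuropilins, 12 were tested and 0 were called by edgeR in either direction (median log2 value -0.12). DESeq2 and limma-voom also called 0, and 1 was higher and 2 were lower at an unadjusted edgeR p under 0.05. Plxnd1, the plexin that receives semaphorin signals in vessels, was 251 ± 4.6 and 251 ± 3.41 CPM, and Plxna1, a partner of neuropilins, was 142 ± 10.4 and 139 ± 17.6 CPM. The semaphorin Sema3c, at 1.40 ± 0.263 and 0.798 ± 0.335 CPM, had the most negative value of the list, -0.82 (adjusted p = 0.179).

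The balance between members was then compared within each library, where the scaling of libraries cancels. Vegfa made up 90.1%, 90.2% and 89.1% of the summed FPKM of the 5 ligands in ITGA5 fl/fl libraries and 87.5%, 89.7% and 85.2% in Myα5KO, a difference of -2.31 percentage points (two-sided exact permutation p = 0.2, where 0.1 is the smallest this design allows). The difference was -1.18 points without Myα5KO replicate 3 and -1.13 points when counts replaced FPKM. The log2 ratio of Vegfa to Vegfb was 3.52 ± 0.104 and 3.20 ± 0.352, and the groups overlapped (difference -0.31, exact permutation p = 0.3). This difference was -0.16 without Myα5KO replicate 3 and -0.50 without Myα5KO replicate 2. Both ratios between paired receptors separated the groups fully. Each holds a called member, Kdr or Nrp1, whose CPM already separated the groups, so these separations are not independent of those calls. The log2 ratio of Flt1 to Kdr was -0.45, -0.75 and -0.79 in ITGA5 fl/fl libraries and -0.96, -1.03 and -1.11 in Myα5KO, which is a linear ratio of 0.632 against 0.488 (difference in log2 -0.37, exact permutation p = 0.1). The log2 ratio of Nrp1 to Nrp2 was -0.14, -0.03 and 0.02 in ITGA5 fl/fl libraries and 0.27, 0.29 and 0.44 in Myα5KO, a linear ratio of 0.964 against 1.26 (difference in log2 0.39, exact permutation p = 0.1). These comparisons cannot reach a p of 0.05 with 3 libraries per group.

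**Figure D3:**
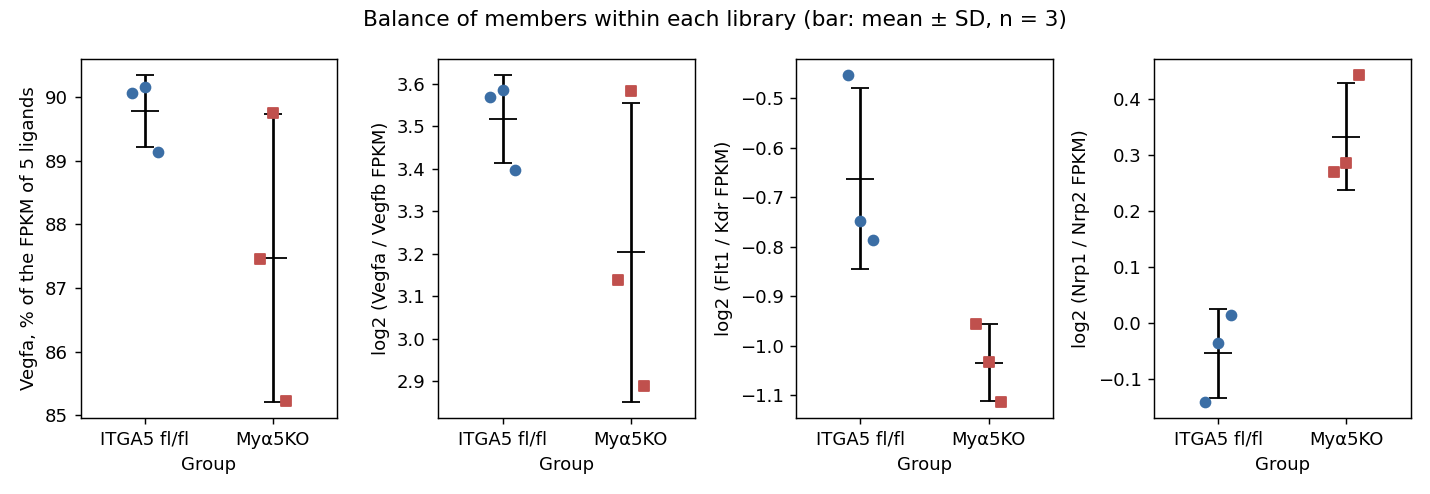
Balance of members within each library, with points for libraries and bars for the mean ± SD (n = 3 each), on axes not drawn from 0. The share of Vegfa among ligands and the log2 Vegfa to Vegfb ratio overlap between groups, whereas log2 Flt1 to Kdr (means -0.66 and -1.03) and log2 Nrp1 to Nrp2 (means -0.05 and 0.33) do not.

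**Figure D4:**
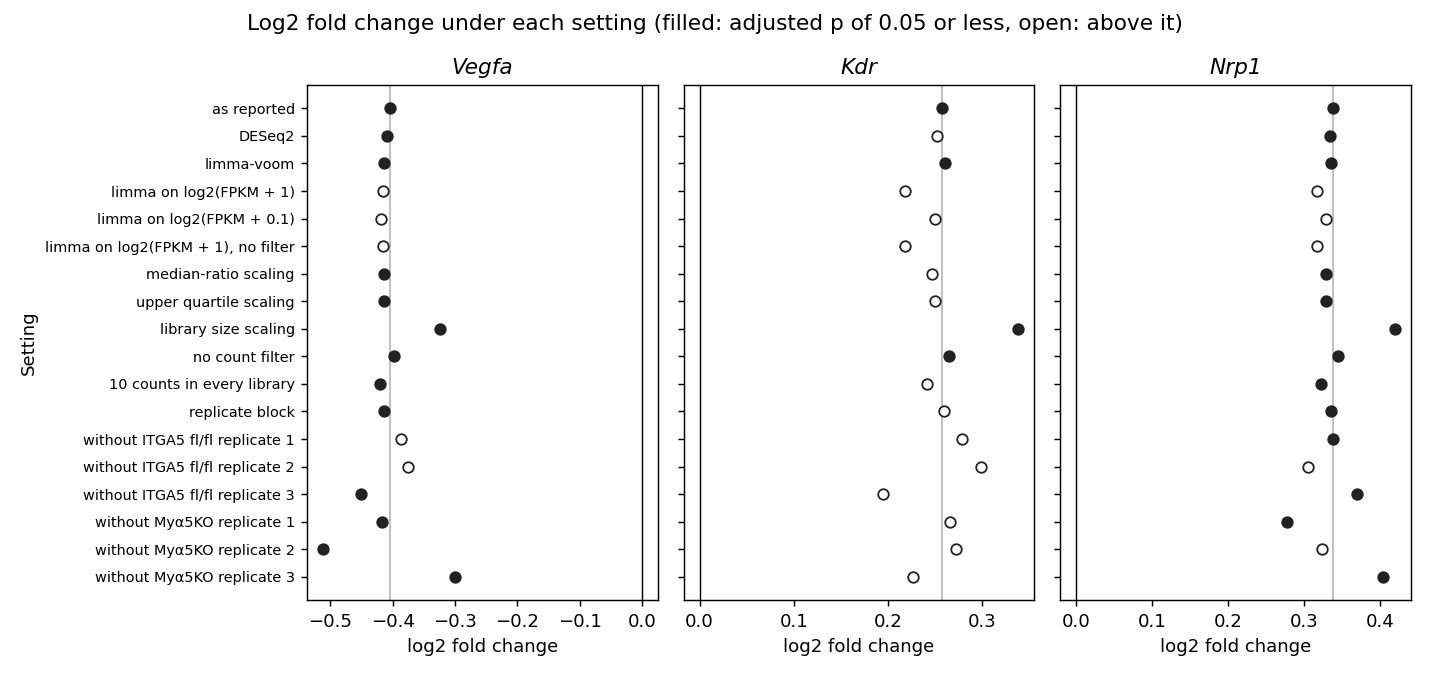
Log2 fold change of Vegfa, Kdr and Nrp1 (Myα5KO over ITGA5 fl/fl) as reported and under 17 alternatives, where filled points have an adjusted p of 0.05 or less, the grey line marks the reported value and the black line marks 0. All points keep their sign, with ranges of -0.51 to -0.30, 0.19 to 0.34 and 0.28 to 0.42, and 12, 3 and 12 of the alternatives are filled.

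Genes that control or receive the VEGF signal were counted next, beside the 5.19% and 3.56% of all tested genes called lower and higher. Of 40 genes of receptor signalling, 5 fell (12.5%) and 1 rose (2.5%), with a median log2 value of -0.02. Gab1, a docking adaptor downstream of KDR, fell most, from 149 ± 8.91 to 76.4 ± 10.2 CPM (log2 fold change -0.97, adjusted p = 5.6e-05). Src, a kinase downstream of KDR and of integrins, fell from 34.5 ± 2.86 to 23.6 ± 0.60 CPM (-0.55). Pxn, the focal adhesion protein paxillin, also fell (-0.51), as did Fyn and Pik3r1 (both -0.27). The gene that rose was Mapk14, the p38α kinase, from 133 ± 5.54 to 165 ± 2.39 CPM (0.32).

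Of 20 tested regulators of Vegfa transcription or mRNA stability, 3 fell (15%) and 1 rose (5%). Egln2, an oxygen-sensing prolyl hydroxylase that marks hypoxia-inducible factors for decay, had a log2 fold change of -0.35. Stat3, a transcription factor of cytokine signalling, had -0.27, and Arnt, the partner subunit of hypoxia-inducible factors, had -0.25. Fos, a subunit of AP-1, was the one that rose, from 1039 ± 71.7 to 1518 ± 292 CPM (0.55). The subunits Hif1a (216 ± 9.68 and 183 ± 22.5 CPM, log2 value -0.24, adjusted p = 0.106) and Epas1 (87.4 ± 2.59 and 81.7 ± 3.18 CPM, -0.10, adjusted p = 0.388) were not called.

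Of 26 hypoxia targets other than Vegfa, 6 fell (23.1%) and 0 rose, with a median log2 value of -0.15. At an unadjusted edgeR p under 0.05, 10 were lower and 2 higher, and DESeq2 also called 6 lower and 0 higher. The largest falls were those of Mxi1, a repressor related to MAX (-0.77, from 391 ± 20.6 to 229 ± 30.7 CPM), and Hk2, a hexokinase (-0.61, from 207 ± 16.9 to 135 ± 8.70 CPM). The stress-response genes Ddit4 (-0.58) and Ndrg1 (-0.51), the glucose carrier Slc2a1 (-0.43) and the hexokinase Hk1 (-0.31) also fell. Of 16 tested genes that process or bind VEGF ligands, 3 fell (18.8%) and 0 rose in the edgeR test, with 4 lower and 0 higher at an unadjusted p under 0.05. DESeq2 called 2 of the 3, without Fn1. Fn1, fibronectin, which is a ligand of the deleted integrin and binds VEGF-A, had a log2 fold change of -0.73 with a wide spread in the controls (3380 ± 832 against 2032 ± 425 CPM), Thbs1, thrombospondin 1, had -0.61, and Furin, a protease that matures VEGF-C, had -0.32.

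**Figure D5:**
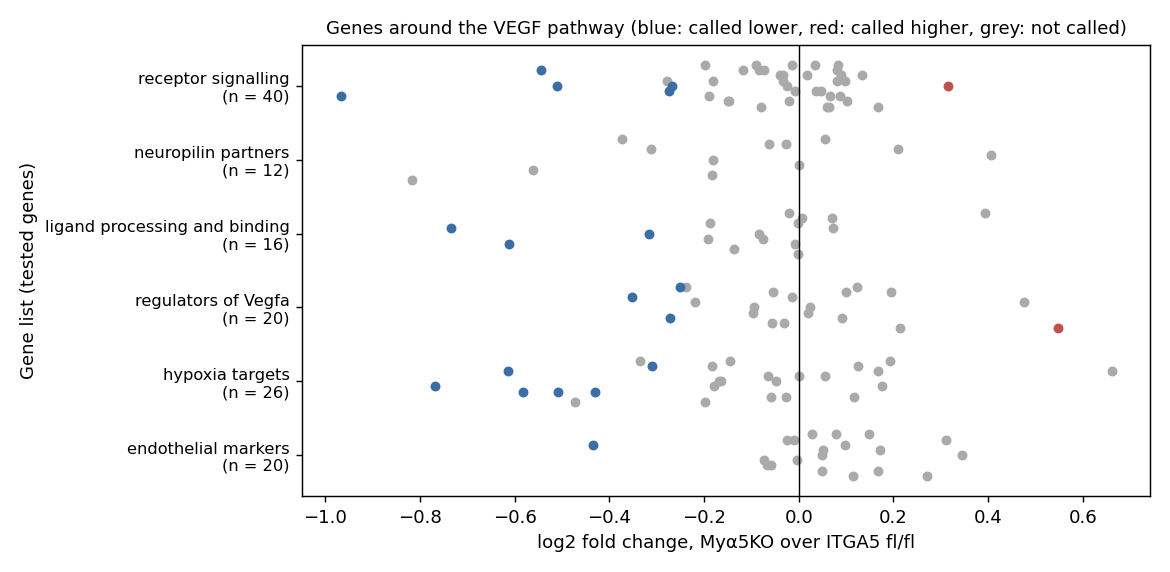
Log2 fold change (Myα5KO over ITGA5 fl/fl) of every tested gene in 5 lists around the VEGF pathway and in the endothelial markers, with blue for called lower, red for called higher and grey for not called, and vertical scatter only to part the points. Called genes lie mostly on the lower side, with 6 of 26 hypoxia targets, 5 of 40 receptor signalling genes and 1 of 20 endothelial markers called lower.

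Markers of other cells moved along with the groups, and their part in the results above was not tested. Beside the lower Vegfa, the 14 fibroblast markers had 13 negative log2 values, with 1 called (Postn, a matrix protein, -0.40) and a median of -0.28. At an unadjusted edgeR p under 0.05, 7 were lower, and DESeq2 called 4 lower (Col3a1, Col1a2, Postn and Col5a1, all matrix genes). The summed cardiomyocyte markers were 28.3 to 29.8 CPM in ITGA5 fl/fl libraries and 17.6 to 22.6 CPM in Myα5KO, with 4 of 12 tested genes called lower (Ttn, Tnnc1, Actc1 and Tnnt2), of which DESeq2 called 3, without Tnnc1. Mural cell markers summed to 178 to 195 CPM and 149 to 192 CPM, with Des, the muscle filament desmin, called lower (-0.64). Among macrophage markers, Cd14, a co-receptor for endotoxin, fell (-0.45) and Fcgr1, an Fc receptor, rose (0.27). Beside the higher Kdr and Nrp1, 7 of 9 tested granulocyte markers rose (Elane, Mpo, S100a8, S100a9, Ngp, Camp and Ltf), with sums of 185 to 228 CPM and 253 to 379 CPM, and DESeq2 called 5 of them, without Mpo and S100a9. The other tested granulocyte markers, Csf3r and Retnlg, were not called. Csf3r was the largest part of the sums, at 155 ± 16.6 and 169 ± 12.3 CPM (edgeR adjusted p = 0.378). Retnlg had a negative log2 value, -0.65 (edgeR adjusted p = 0.311). Dendritic cell markers, of which Cd209a rose (0.57) and DESeq2 called 2, summed to 148 to 202 CPM and 205 to 223 CPM. Their log2 values were 4 positive and 4 negative, with a median of 0.12. The largest part of the sum was Itgax, at 131 ± 20.7 and 156 ± 5.34 CPM (adjusted p = 0.132). B cell markers, among which Cd79b rose (0.57), summed to 201 to 259 CPM and 230 to 423 CPM. T and NK cell markers summed to 24.1 to 26.5 CPM and 28.8 to 29.6 CPM, with 0 of 4 tested genes called by edgeR, DESeq2 or limma-voom and 2 higher at an unadjusted edgeR p under 0.05.

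Lastly, the genes whose log2 CPM over the 6 libraries ran most closely with each called member were listed among 9315 genes with a mean of 100 or more counts. Because these libraries differ by group, the values are given as a description only. Vegfa ran most closely with Bahd1 (Pearson r = 0.998), Foxn2 (0.995) and Smcr8 (0.994). Kdr ran most closely with Ptpro (0.989), Sesn2 (0.988) and Arhgap45 (0.986). Far1 (0.995) and Osbpl11 (0.990) were among the genes closest to Nrp1.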

How the data were processed

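RNA-seq of macrophages was analysed for 3 ITGA5 fl/fl and 3 Myα5KO libraries, each assigned by its title. The authors aligned reads to GRCm38 with TopHat2 2.0.9 and deposited whole-number counts per gene from HTSeq 0.6.1, and the submitters' processing notes also name Cufflinks 2.1.1. Settings for strand and multi-mapped reads are not given in the sources used here, and the library kit does not mark strand. The deposited FPKM values equal the count divided by the deposited gene length and a constant per library. The authors' own fold changes were not used.

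R 4.3.3 and edgeR 4.0.16 were used for the main test, a quasi-likelihood fit of the counts (TMM, default filter with minimum count 10 and minimum total 15, 14522 genes kept), without covariates. P-values are two-sided with Benjamini-Hochberg adjustment over all tested genes, and "called" means an adjusted p of 0.05 or less. CPM use TMM-scaled totals. Within-library ratios used exact permutation tests. Alternatives were DESeq2 1.42.0, which the study named as its test, limma 3.58.1 (voom, and trend on log2(FPKM + 1) and log2(FPKM + 0.1) for genes with FPKM of at least 1 in 3 libraries, or unfiltered), other scalings and filters, a replicate block, each library left out and an adjusted p of 0.01.

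The members, gene lists and tests were chosen with earlier results of these data known. The named genes are the members, Itga5, in each pathway list the 2 largest called rises and falls, called or absent markers, and the 3 genes most like each called member (predicted and RIKEN names left out). Any other gene named was picked with its values in view, and a few genes that the rule names are not reported here. The code was tested on simulated data. No pair of libraries in a group agreed within sampling noise (chi-square per degree of freedom at least 5.15).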

Additional observations from a re-analysis of the deposited data

How the results depend on the processing

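Vegfa, Kdr and Nrp1 kept their direction in all 17 alternatives, and the calls depended on the setting. With limma on log2(FPKM + 1), on log2(FPKM + 0.1) and on unfiltered log2(FPKM + 1), 0 members were called lower and 0 higher, while 472, 448 and 10 genes were called in all. Vegfa then had log2 values of -0.42, -0.42 and -0.42 (adjusted p 0.0852, 0.0870 and 0.226). The filtered FPKM fits tested 8 members, without Vegfd and Flt4. At an adjusted p of 0.01, 0 members were called in either direction, with 470 genes in all, and Vegfa at -0.40 was not called. DESeq2, median-ratio scaling, upper quartile scaling and a minimum of 10 counts in every library each called 1 member higher, Nrp1, since Kdr was not called. Leaving out 1 library each gave 0 to 1 members lower, 0 to 1 members higher and 616 to 1091 genes called, with the lowest number without ITGA5 fl/fl replicate 3 and also 723 without ITGA5 fl/fl replicate 2 and 819 without Myα5KO replicate 2. In these fits Vegfa ranged from -0.51 to -0.30, Flt1 from -0.24 to 0.011 and Nrp2 from -0.13 to 0.073. Scaling by library size put Nrp2 at 0.039, shifted the median log2 value of all tested genes from 0.015 to 0.095 and called 518 genes lower and 1212 higher, against 754 and 517 as reported. Without a count filter 1738 genes were called in a fit whose prior degrees of freedom were estimated as infinite.

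The labels number the replicates 1 to 3 in both groups without saying what a number shares. Deviations of same-numbered libraries correlated at 0.0518, -0.0749 and 0.0412, so the numbers were not taken as pairs. With the replicate block, 1 member was called lower and 1 higher, because Kdr (0.26, adjusted p = 0.0648) was no longer called, and the number of genes called was 1181. The cause of these lost calls was not tested. Without Myα5KO replicate 3, the difference in the summed endothelial markers was -24.9 CPM, against 25.0 CPM with all libraries.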
